A study of Mus musculus with 16 samples.

Results

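Cadherins and protocadherins were described at the level of gene sums and transcripts in the hippocampus of 16 mice, 4 in each of 4 groups. The members were chosen by name, as rows of type protein coding whose gene name contains Cdh or Pcdh followed by a digit, or Pcdha, Pcdhb or Pcdhg. The rule found 67 genes with 164 transcripts, of 14785 protein coding gene names and 80137 transcripts of all types in the table. All mice were male C57BL/6 wild type animals of 3 months, and each gave 1 total RNA library from both hippocampi. Homecage mice (HC) received no handling, no shocks and no test. Control mice (Ctrl) were placed in the shuttle box without shocks in place of the induction session. They then went through 30 escapable shock trials of 0.4 mA. The mice of the helpless (LH) and non-helpless (NLH) groups first received 180 inescapable shocks of 0.4 mA and then the same 30 trials, and were told apart by their escape behavior. The LH and NLH groups were therefore formed by an outcome of the test and not by a different treatment.

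Cadherins are calcium-dependent adhesion proteins of the cell surface. Classical cadherins bind partners on the neighboring cell with their extracellular repeats and bind catenins, which lead to the actin cytoskeleton, with their cytoplasmic tail; in the hippocampus they sit at synaptic junctions. Nonclustered delta protocadherins have longer extracellular parts and other cytoplasmic motifs, and have roles in axon growth and synapse remodeling. The clustered protocadherins lie in tandem arrays of variable exons, each with its own promoter, and the alpha and gamma arrays splice each variable exon to constant exons, so that single neurons carry different combinations on their surface.

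The values were FPKM, counts of sequenced fragments divided by transcript length and library size. The FPKM of all transcripts summed to between 120208 and 158004 per mouse, of which the members held 0.174% to 0.199%, and the depth recovered from the smallest steps of the values was about 20180000 to 38120000 fragments. LH4, the mouse of lowest depth, had 15504 transcripts at 0 and LH3 had 10846, against 4872 to 7352 in the other mice. Of the members' own transcripts 17 were at 0 in LH4 and between 2 and 11 in the other mice. All 9 markers of hippocampal neurons were measured, with a sum of 181 to 292 FPKM per mouse. None was listed at exactly 0, but Wfs1 was at 0.00225 FPKM in LH4 and 0.194 in LH3. The sum of 6 thalamus markers was 26.1 FPKM in LH1 and 7.76 to 12.6 in the other 15 mice, and each of the 6 was highest in LH1. The sum of 7 choroid plexus markers ranged from 2.67 in LH4 to 102 in LH2, while 5 oligodendrocyte markers summed to 265 in LH4 and 328 to 515 elsewhere, and 6 markers of meninges and fibroblasts to 7.67 in LH4 and 10.4 to 33.7 elsewhere. The sums of the other lists were 19.5 to 35.9 for 5 endothelial, 13.1 to 25.1 for 7 striatal, 108 to 170 for 5 astrocyte and 25.8 to 39.5 for 6 microglial markers. The part of these differences in the results was not tested, and the differences that depended most on 1 mouse are also given without it.

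The hippocampus contained a few abundant members and a long tail of low ones. A mean over the 16 mice of at least 10 FPKM was found for 8 genes, 38 genes lay between 1 and 10, and 21 were under 1, of which 5 were under 0.1. The share of members at 1 FPKM or more was 68.7% (46 of 67), and that of all protein coding genes was 68.4%. In all 16 mice 62 of the 67 genes had a value above exactly 0. This counts values as small as that of Cdh24 in LH4 (7.08e-06 FPKM), so it is not a count of detected genes. Of the summed member FPKM, 31.6% belonged to the 4 delta-1 protocadherins, 24.7% to the 21 gamma genes, 17.7% to the 13 type II cadherins, 9.41% to the 4 delta-2 protocadherins, 7.01% to the 13 alpha genes and 5.25% to the 4 type I cadherins. The 3 atypical cadherins held 3.51%, Pcdh15 0.632% and the 4 beta genes 0.146%. These sums hold rows with a gene name. Unnamed assembled rows at loci outside the alpha and gamma clusters added 54.2 FPKM, of which 33.3 lay at type II loci, and with them type II genes held 25.5% and gamma genes 20.3%, so the order of these families turned.

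**Figure D1:**
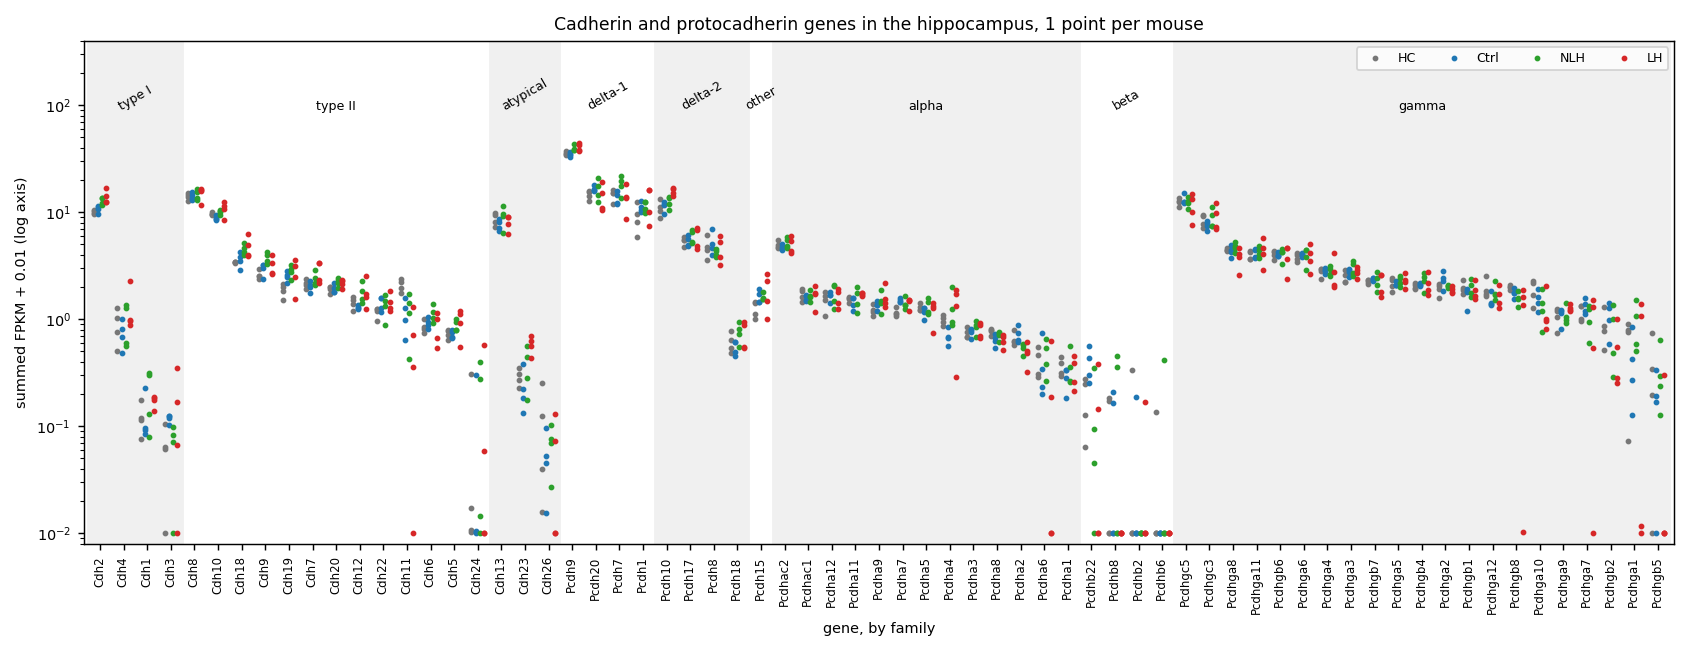
Summed FPKM of each of the 67 genes (log axis, FPKM + 0.01) in each of the 16 mice, 1 point per mouse, colored by group and ordered by family and mean level. Pcdh9 lies above all other members, and for most genes the 4 groups cover the same range.

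Delta-1 protocadherins were the most abundant family per gene. Pcdh9 was the highest member in 16 of 16 mice, with a mean of 37.5 FPKM. Pcdh20 followed at 15.3 FPKM (10.4 to 20.6 in single mice), Pcdh7 at 14.97 (8.54 to 22.0) and Pcdh1 at 10.9 (5.79 to 15.99), and the ranges of these 3 genes overlapped. With the unnamed rows of each locus Pcdh1, at 19.9 FPKM, came before Pcdh20 (16.7) and Pcdh7 (15.5). Pcdh9 (ENSMUSG00000055421) lies at chr14:93013410-93890679 on the minus strand (GRCm38, GENCODE vM21), and 6 of its transcripts were measured, all protein coding. Its transcripts differ after the large first coding exon. In Pcdh9-204 (ENSMUST00000193901) the exon end at chr14:93885697-93885711 joins bases at chr14:93326866-93326880, whereas in Pcdh9-201 and 2 further measured transcripts it joins a cassette exon of 102 bases at chr14:93560476-93560577, entering it at chr14:93560563-93560577. Both joins are shown because Pcdh9-204 had the smallest p of the member transcripts in LH vs. Ctrl. The last bases of the shared exon are in lower case and the bases that follow it in capitals, and all of them are coding:
Pcdh9-204: ttacacaccagacagTCTCAGCGCCGTGTT
Pcdh9-201: ttacacaccagacagTGTAACTCATACAGC

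Pcdh7, also called NF-protocadherin (ENSMUSG00000029108, chr5:57717967-58133230, plus strand), had 7 measured transcripts, of which the 3 shown here part after a shared exon end at chr5:57913358-57913372. Pcdh7-203 continues at chr5:58128975-58128989, Pcdh7-204 at chr5:57942167-57942181, and Pcdh7-207, a short transcript of 659 bases, reads on into the intron at chr5:57913373-57913387. The following windows mark the 3 forms, with the bases after the shared end in capitals:
Pcdh7-203: agcatatggaaaatgATTCAAGGCCTCTTC
Pcdh7-204: agcatatggaaaatgGTGTTGCTGTCATCA
Pcdh7-207: agcatatggaaaatgGTAGGGGCAAACACA

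Among delta-2 protocadherins, Pcdh10 was the highest with 12.6 FPKM. Pcdh10 recruits the actin-regulating WAVE complex through its tail. Pcdh17, which acts at presynaptic terminals, had 5.62 FPKM, Pcdh8 (arcadlin), an activity-induced protein that promotes the internalization of N-cadherin, had 4.63, and Pcdh18 had 0.65. Pcdh15, a component of the tip links of sensory hair cells, had 1.58 FPKM.

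Of the classical cadherins, Cdh2 (N-cadherin) was the main type I gene with 11.9 FPKM, whereas Cdh4 (R-cadherin) had 0.956, Cdh1 (E-cadherin) 0.146 and Cdh3 (P-cadherin) 0.0878. By named rows, type II cadherins were led by Cdh8 with 14.5 FPKM and Cdh10 with 9.82, followed by Cdh18 with 4.06, Cdh9 with 3.10 and Cdh19 with 2.46. With all rows of each locus the order was Cdh8 (18.8), Cdh11 (15.9), Cdh10 (9.82), Cdh12 (8.26), Cdh9 (7.77) and Cdh18 (4.68). Cdh9 is known for its role in the synapses of dentate granule cells on CA3 neurons. Cdh5 (VE-cadherin), a marker of vascular endothelium, had 0.811 FPKM. Cdh13 (T-cadherin), which is held to the membrane by a lipid anchor and has no cytoplasmic tail, was the main atypical member with 8.35 FPKM, against 0.356 for Cdh23 and 0.0614 for Cdh26. Cdh18 (ENSMUSG00000040420, chr15:22549022-23474418, plus strand) is shown by sequence because the share of Cdh18-201 was one of the 2 with the smallest p in LH vs. Ctrl; 2 of its 5 transcripts are classed as retained intron. Cdh18-203 joins the exon end at chr15:23446081-23446095 to chr15:23460316-23460330, whereas Cdh18-201, one of these, which has no annotated coding sequence, reads on at chr15:23446096-23446110. Capitals mark the bases after the shared exon end:
Cdh18-203: ttaaggacaatgaagATAACACAGCCAGCA
Cdh18-201: ttaaggacaatgaagGTGAACACCAATATG

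Of the C-type genes at the downstream end of the clustered arrays, Pcdhac2, Pcdhgc5 and Pcdhgc3 were the most abundant of their clusters. The C-type gene Pcdhac1 was close to Pcdha12 (1.60 FPKM), and Pcdhgc4 was not among the genes analysed here. Pcdhac2, which is required for the tiling of serotonergic axons, had 4.95 FPKM and 28.3% of the alpha cluster, between 23.7% and 31.9% in single mice, and was the highest alpha gene in 16 of 16 mice. The other 12 alpha genes ranged from 0.324 FPKM for Pcdha1 to 1.64 for Pcdhac1. Pcdhgc5, known to bind GABA-A receptors, was the highest gamma gene in 16 of 16 mice with 12.3 FPKM, and Pcdhgc3, known to inhibit Wnt signaling, followed with 8.44. Together these 2 genes held 33.6% of the gamma cluster, with 31.5% to 36.7% in single mice. Of the other gamma genes the highest was Pcdhga8 with 4.32 FPKM and the lowest Pcdhgb5 with 0.216. The alpha and gamma transcripts were assembled into 1 locus that covers 34 genes and share constant exons, so the split of reads between these genes is uncertain.

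**Figure D2:**
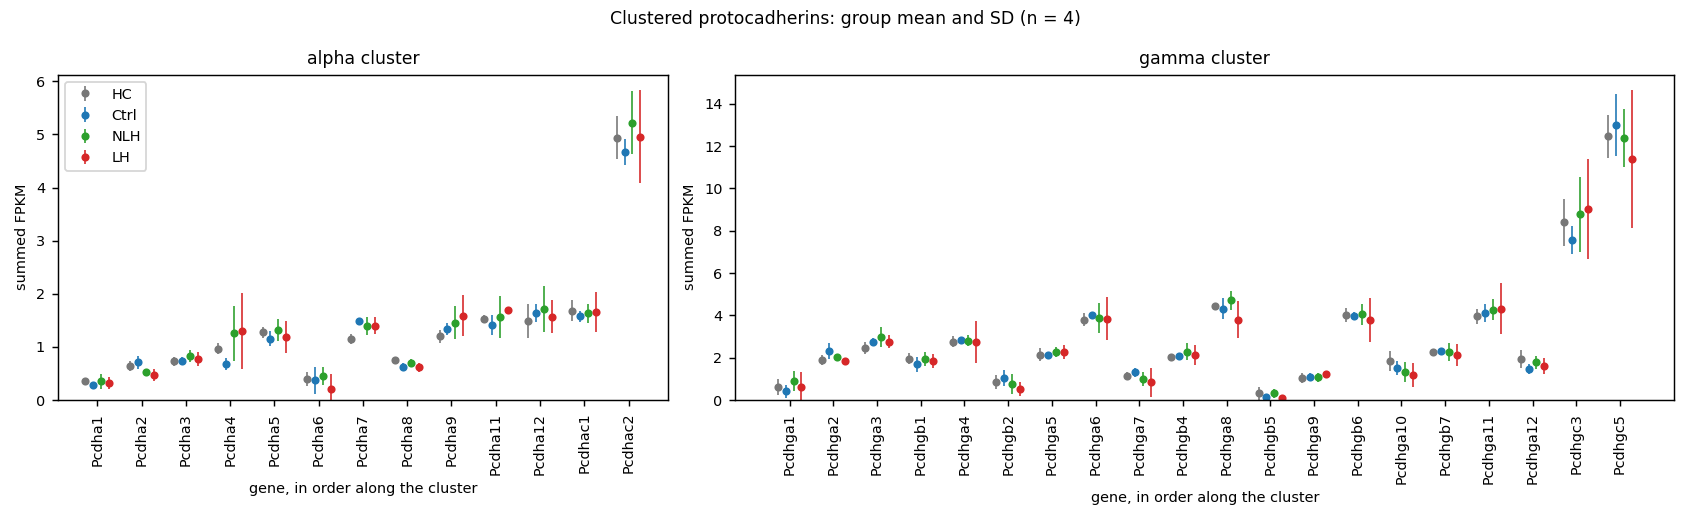
Group mean of summed FPKM with SD (n = 4) for 13 alpha genes (left) and 20 gamma genes (right) in their order along chromosome 18. In all 4 groups Pcdhac2 and the pair Pcdhgc3 and Pcdhgc5, at the right end of each panel, are the highest. Pcdhgb8 had no position and is not drawn.

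Of the beta cluster 4 genes were measured, each by 1 of its 2 annotated transcripts, one with 2 exons, so that their values do not give the level of the beta genes. Pcdhb22 had 0.197 FPKM, Pcdhb8 0.0924, Pcdhb2 0.0411 and Pcdhb6 0.0329. The annotation holds 22 beta genes, of which 18 consist of a single exon and none of those is in the values used here. In all, 92 annotated genes meet the name rule and 25 of them were not analysed here.

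The spread between mice differed between the groups. The median SD of log2 values over the 46 members with a mean of at least 1 FPKM was 0.139 for the HC mice, 0.150 for Ctrl, 0.198 for NLH and 0.322 for LH. Over all protein coding genes of that level it was 0.147, 0.138, 0.198 and 0.358. Of the 46 members 19 (41.3%) were lowest in LH4, where 44.4% of all genes of that level were lowest, 10 (21.7%) were highest in LH2, where 31.5% of all genes were highest, and 8 (17.4%) in LH1, where 17.7% were. The summed FPKM of all 67 genes was 238 ± 10.3 (SD, n = 4) for HC, 240 ± 7.61 for Ctrl, 263 ± 20.4 for NLH and 257 ± 39.8 for LH.

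LH vs. Ctrl compares helpless mice with mice that met only the escapable shocks. All differences are log2 differences of FPKM + 0.1, so those of low genes are understated, and tests are limma fits over all genes with Benjamini-Hochberg adjustment. The main fit shares 1 estimate of the spread per gene among all 16 mice, although the median spread was largest in LH. The counts depended on this choice. With only the 8 mice compared, 5 members passed the unadjusted test in LH vs. Ctrl, 10 in NLH vs. Ctrl and 9 in Ctrl vs. HC, and LH vs. NLH had fewer. The 4 comparisons share groups and are not independent of each other. Since the libraries are from whole tissue, fewer cells of a type and less RNA per cell cannot be told apart. No member passed an adjusted p of 0.05, which 0.0541% of all genes did. At an unadjusted p under 0.05 there were 11 of 67 members, 7 higher and 4 lower in LH, and 11.8% of all genes, 8.18% higher and 3.58% lower. In 5 members, all higher in LH, the groups did not overlap, against 5.99% of all genes (4.84% higher and 1.14% lower). After division by median-ratio size factors these 5 overlapped and only Pcdh20 did not, being lower, against 4.89% of all genes higher and 3.92% lower without overlap, so that overlap is stated for FPKM as deposited. With median-ratio size factors the split of the members at an unadjusted p under 0.05 was 6 higher and 9 lower, and that of all genes turned likewise, from 1209 higher and 529 lower to 1201 higher and 1294 lower. The median difference of the members was 0.03 and that of all genes 0.01, with 36 of 67 members and 52.1% of all genes higher. The counts of members were thus close to those of all genes.

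**Figure D3:**
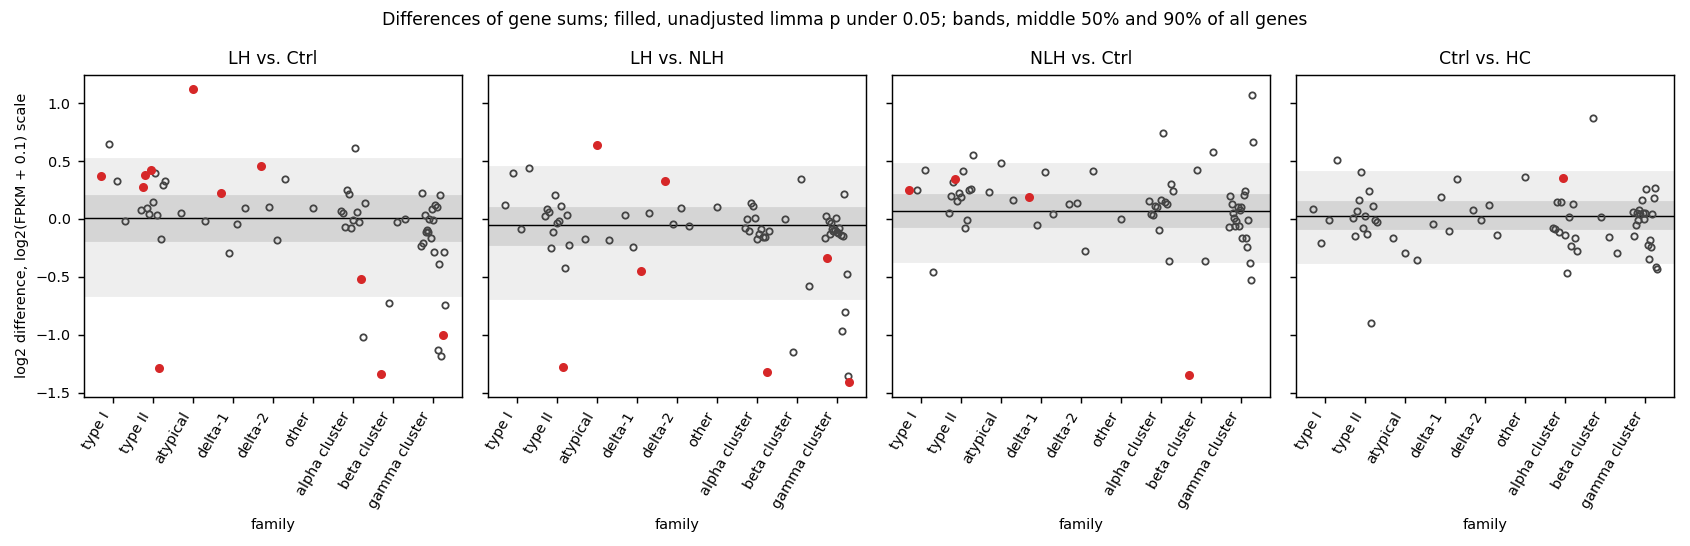
Log2 difference of gene sums, log2(FPKM + 0.1) scale, for the 67 members by family in each comparison, 1 point per gene, with genes at an unadjusted limma p under 0.05 filled. The line and bands give the median and the middle 50% and 90% of all 14785 genes. Most members lie within the bands, and the filled points of type I, type II, delta-1 and delta-2 genes in LH vs. Ctrl are mostly above the line.

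Pcdh10 had its highest group mean in LH. It measured 9.52, 12.0, 11.6 and 12.4 FPKM in Ctrl and 14.1, 16.6, 16.9 and 14.96 in LH, while the NLH mice had 10.4, 14.0, 12.0 and 13.5 and the HC mice 13.2, 11.3, 8.78 and 10.2. By FPKM every LH mouse was above every mouse of the other groups, which did not hold with size factors. The difference was 0.46 ± 0.13 (SE) in LH vs. Ctrl (limma adjusted p = 0.188) and 0.33 ± 0.13 in LH vs. NLH (adjusted p = 0.650). A non-coding transcript of 634 bases contributes to this sum. Without it, LH mice (11.7, 8.87, 9.34 and 8.59 FPKM) were still above Ctrl mice (7.29, 7.46, 7.67 and 7.53), by 0.35, whereas NLH mice (9.19, 8.58, 7.82 and 7.45) overlapped with LH. An antisense gene shares 154 exonic bases with Pcdh10, and the strand setting of the libraries is not given in the sources used here.

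Cdh2 was higher in LH and NLH than in Ctrl. The Ctrl mice had 9.56, 11.2, 11.5 and 10.7 FPKM, the NLH mice 13.6, 13.6, 12.3 and 11.7, and the LH mice 16.9, 12.4, 12.4 and 14.3, and the HC mean was 10.1 ± 0.438. Neither the NLH nor the LH mice overlapped with Ctrl by FPKM, but both did with size factors. The difference was 0.37 ± 0.11 in LH vs. Ctrl (adjusted p = 0.192) and 0.25 ± 0.11 in NLH vs. Ctrl (adjusted p = 0.745, and 0.17 with size factors, where it did not pass the unadjusted test), and between LH and NLH it was 0.12 ± 0.11. The highest value belonged to LH1, the mouse with high thalamus markers, and without it the difference in LH vs. Ctrl was 0.28 (adjusted p = 0.308).

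Pcdh9 was higher in NLH and LH than in Ctrl. The values were 36.4, 34.7, 34.1 and 33.1 FPKM in Ctrl, 38.2, 43.3, 38.1 and 38.6 in NLH and 44.2, 42.7, 37.5 and 37.8 in LH, and the HC mean was 35.5 ± 1.34. By FPKM all NLH and LH mice lay above all Ctrl mice, but with size factors both groups overlapped with Ctrl. The difference was 0.23 ± 0.08 in LH vs. Ctrl (adjusted p = 0.288), 0.19 ± 0.08 in NLH vs. Ctrl (adjusted p = 0.743, and 0.11 with size factors, which did not pass the unadjusted test) and 0.03 ± 0.08 in LH vs. NLH.

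Cdh23, which forms tip links with Pcdh15, had the smallest p of all 67 members in LH vs. Ctrl at a low level, with a mean of at least 0.5 FPKM in LH only. It measured 0.122, 0.173, 0.368 and 0.211 FPKM in Ctrl and 0.555, 0.426, 0.692 and 0.621 in LH, with no overlap by FPKM. The difference was 1.12 ± 0.30 (adjusted p = 0.147). All 5 measured Cdh23 transcripts are classed as processed transcript or retained intron, so this sum holds no annotated coding form. The NLH mice, with 0.164, 0.270, 0.429 and 0.548 FPKM, overlapped with both groups.

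Among type II cadherins 11 of 13 were higher and 2 lower in LH than in Ctrl, with a median of 0.15, and with size factors 10 were higher, beside 52.1% of all genes higher. Cdh10 measured 8.41, 8.61, 9.34 and 8.72 FPKM in Ctrl and 12.5, 10.7, 11.4 and 8.45 in LH, and only LH4 overlapped with Ctrl. Its difference was 0.28 ± 0.11 (adjusted p = 0.315), and with coding transcripts only the adjusted p was 0.553. Without LH4 it was 0.39 with an adjusted p of 0.0370, which 1.68% of all genes also passed; Pcdha4 was the other member that did, at 1.16 (adjusted p = 0.0370) without LH4 and 0.61 ± 0.40 (adjusted p = 0.599) with all 4 LH mice. Without LH3 and LH4 together Cdh10, Cdh2, Pcdh9 and Pcdha4 passed, as did 8.1% of all genes. Without LH1 the difference of Cdh10 was 0.20 (adjusted p = 0.447).

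Cdh18 measured 2.87, 3.84, 4.19 and 3.47 FPKM in Ctrl and 6.23, 3.98, 3.86 and 4.90 in LH, a difference of 0.38 ± 0.16 (adjusted p = 0.353), which was 0.24 without LH1. When only its 3 coding transcripts were summed, a choice made after seeing the data, Ctrl mice had 1.00, 1.85, 1.93 and 2.01 FPKM and LH mice 3.99, 2.84, 2.43 and 3.72, with no overlap and a difference of 0.92 ± 0.24 (adjusted p = 0.141). The NLH mice, at 2.10, 2.08, 3.57 and 2.49, were also above Ctrl, by 0.58 (adjusted p = 0.681). Cdh7 was at 1.75 to 2.28 FPKM in Ctrl and 2.19 to 3.32 in LH, by 0.43 ± 0.16 (adjusted p = 0.315).

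Cdh11 was lower in LH, at 1.57, 0.964, 0.628 and 1.27 FPKM in Ctrl and 0.698, 1.29, 0.350 and near 0 in LH, a difference of -1.29 ± 0.60 (adjusted p = 0.412), which was -0.54 without LH4. Unnamed assembled transcripts at the same locus carry most of its signal, and with all rows of the locus its mean was 15.9 FPKM and its difference 0.05 ± 0.11 (adjusted p = 0.884). The other 3 members that were lower at an unadjusted p under 0.05 were low cluster genes, Pcdhb22 with -1.34 ± 0.51, Pcdhgb2 with -1.002 ± 0.44 and Pcdha2 with -0.52 ± 0.21, and their adjusted p was 0.313 to 0.383. Of the 21 gamma genes 15 were lower and 6 higher, with a median of -0.12, where 52.1% of all genes were higher. This direction rested on LH4, since without it 9 were lower and 12 higher, with a median of 0.02. The summed gamma FPKM was 67.02, 73.5, 52.5 and 43.6 in LH against 58.5 to 64.2 in Ctrl, so that LH1 and LH2 were above and LH3 and LH4 below all Ctrl mice. Of the 13 alpha genes 7 were higher and 6 lower. The abundant cluster genes did not pass the unadjusted test, with -0.23 ± 0.17 for Pcdhgc5, 0.22 ± 0.17 for Pcdhgc3 and 0.07 ± 0.13 for Pcdhac2. Of the other abundant genes, Pcdh20 (-0.29 ± 0.18), Pcdh7 (-0.04 ± 0.20), Cdh8 (0.08 ± 0.12), Pcdh1 (0.10 ± 0.24) and Cdh13 (0.05 ± 0.17), did not pass it either. With size factors Pcdhgc5 (-0.27) and Pcdh20 (-0.33) passed it, as lower in LH.

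**Figure D4:**
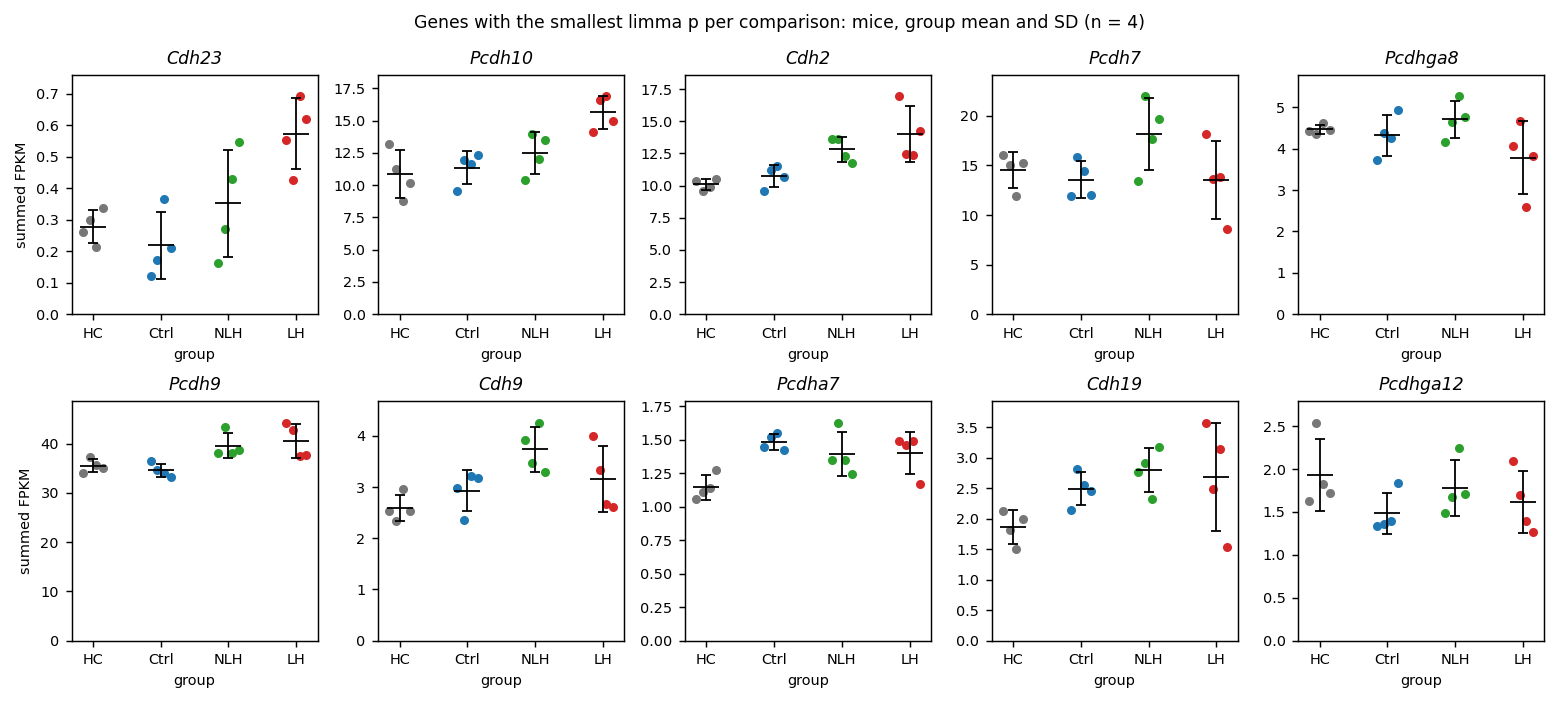
Summed FPKM by mouse for the 10 genes with the smallest limma p in a comparison among members with a mean of at least 0.5 in either group, with the group mean and SD (n = 4, linear axes from 0). By these values the LH mice lie above the Ctrl mice without overlap for Cdh23, Pcdh10, Cdh2 and Pcdh9, and for Pcdh10 also above the NLH mice.

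LH vs. NLH compares mice that received the same inescapable shocks and differed in escape behavior. No member passed an adjusted p of 0.05 with limma (smallest adjusted p = 0.641), which 0.00676% of all genes did. There were 7 of 67 members at an unadjusted p under 0.05, 2 higher and 5 lower, and 7.03% of all genes, 2.98% higher and 4.05% lower. Only Pcdh10 did not overlap between the groups by FPKM, being higher in LH (0 members with size factors), against 1.97% of all genes (0.92% higher and 1.06% lower). The median difference of the members was -0.09, with 43 lower and 24 higher, and that of all genes -0.05. The 2 higher members at this threshold were Pcdh10 and Cdh23 (0.64 ± 0.30, and 0.41 without NLH1).

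Pcdh7 measured 13.5, 22.0, 17.7 and 19.7 FPKM in NLH and 18.2, 13.6, 13.9 and 8.54 in LH, against 11.9, 15.8, 14.4 and 12.1 in Ctrl. The NLH and LH mice overlapped. The difference in LH vs. NLH was -0.45 ± 0.20 (adjusted p = 0.678), and it was -0.25 without LH4 and -0.61 without LH1. A processed transcript on the opposite strand shares 2235 exonic bases with Pcdh7.

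Pcdhga8 measured 4.17, 4.64, 5.27 and 4.78 FPKM in NLH and 4.06, 4.66, 2.58 and 3.83 in LH. Its difference was -0.33 ± 0.15 (adjusted p = 0.699), and -0.17 without LH3. In the gamma cluster 18 of 21 genes were lower in LH than in NLH, with a median of -0.12 (16 of 21 and -0.08 with size factors), and 9 of 13 alpha genes were lower, with a median of -0.10. Without LH4, however, 11 of 21 gamma and 6 of 13 alpha genes were lower, and without LH3 and LH4 together 5 of 21 and 3 of 13. The summed gamma FPKM was 55.5 to 69.4 in NLH, and only LH3 and LH4 were below that range. Of all genes 39.8% were higher in LH than in NLH. The lower members at an unadjusted p under 0.05 also included Pcdha6 (-1.32 ± 0.53) and Pcdhgb5 (-1.41 ± 0.63), both near 0 in LH3 and LH4 and Pcdhgb5 in LH2 as well, and Cdh11 (-1.28 ± 0.60). The difference of Cdh11 was -0.53 without LH4 and 0.06 with all rows of its locus.

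NLH vs. Ctrl compares mice that received inescapable shocks without becoming helpless with mice that did not receive them. No member passed an adjusted p of 0.05 with limma (smallest adjusted p = 0.669), and 0 of all genes did. At an unadjusted p under 0.05 there were 4 of 67 members, 3 higher and 1 lower, and 5.96% of all genes, 4.99% higher and 0.967% lower. With median-ratio size factors 1 was higher and 2 were lower, and all genes at this threshold went from 738 higher and 143 lower to 592 higher and 571 lower. In 9 members, 7 higher and 2 lower in NLH, the groups did not overlap, against 6.73% of all genes (5.48% higher and 1.25% lower). With size factors the 7 higher members overlapped and the 2 lower ones did not, against 3.88% of all genes higher and 3.99% lower without overlap. The median difference of the members was 0.13 and 47 of 67 were higher, whereas the median of all genes was 0.07 and 63.9% were higher.

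The 3 higher members were Pcdh9, Cdh2 and Cdh9. Cdh9 measured 2.97, 2.35, 3.21 and 3.19 FPKM in Ctrl and 3.93, 3.48, 4.26 and 3.29 in NLH, with no overlap, a difference of 0.34 ± 0.16 (adjusted p = 0.792), which was 0.27 with size factors and did not pass the unadjusted test there. With all rows of its locus the difference was 0.11 (adjusted p = 0.998), with Ctrl at 6.30 to 8.25 and NLH at 7.45 to 9.03 FPKM, so the groups overlapped. By named rows the LH mice, at 3.99, 3.34, 2.66 and 2.62, overlapped with both. Cdh10 (0.20 ± 0.11), Cdh12 (0.41 ± 0.20), Cdh5 (0.26) and Pcdha4 (0.74 ± 0.40) were higher in NLH without overlap, but did not pass the unadjusted test. Cdh12 overlapped with all rows of its locus, where its difference was 0.09, and Cdh10 with coding transcripts only (0.23). In the type II family 11 of 13 genes were higher, with a median of 0.22 (10 of 13 with size factors, and 9 of 13 with a median of 0.13 with all rows of each locus). Pcdhb22, a low gene at 0.241 to 0.550 FPKM in Ctrl and up to 0.340 in NLH, had a difference of -1.34 ± 0.51. Pcdha2 (-0.36) and Cdh3 (-0.46) were lower without overlap, and Cdh3, which was listed at 0 in NLH4, differed by -0.26 without that mouse.

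Ctrl vs. HC compares mice that were handled, placed in the shuttle box and given the escapable shocks with unhandled mice that stayed in their cages. The parts of this treatment cannot be told apart. No member passed an adjusted p of 0.05 with limma (smallest adjusted p = 1), and 0 of all genes did. The only 1 of 67 members at an unadjusted p under 0.05 was Pcdha7, which was higher in Ctrl, against 2.64% of all genes, 1.66% higher and 0.974% lower. With median-ratio size factors 1 was higher and 1 lower, beside 347 higher and 319 lower of all genes. In 5 members, 2 higher and 3 lower in Ctrl, there was no overlap, against 5.84% of all genes (3.87% higher and 1.97% lower). The median difference of the members was -0.01 and that of all genes 0.03.

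Pcdha7 measured 1.05, 1.11, 1.14 and 1.28 FPKM in HC and 1.45, 1.52, 1.55 and 1.42 in Ctrl, a difference of 0.35 ± 0.14 (adjusted p = 1). The NLH and LH means were 1.39 ± 0.164 and 1.40 ± 0.156. Cdh19 measured 2.13, 1.81, 1.497 and 2.00 FPKM in HC and 2.15, 2.82, 2.55 and 2.45 in Ctrl, a difference of 0.41 ± 0.21 (adjusted p = 1). For both genes all Ctrl mice lay above all HC mice. Cdh10 (-0.14 ± 0.11), Cdh11 (-0.90 ± 0.60) and Pcdha4 (-0.46 ± 0.40) were lower in Ctrl without overlap, but Cdh11 overlapped with all rows of its locus, with a difference of -0.06, and Cdh10 with coding transcripts only, with one of -0.16. Pcdhga12, the other gene with a small p, overlapped (-0.35 ± 0.19, and -0.22 without HC2).

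For single genes, an exact permutation test of 4 against 4 mice cannot go below a two-sided p of 0.0286, the value of every pair of groups that did not overlap.

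Of the 164 member transcripts none passed an adjusted p of 0.05 with limma in any comparison, which 0.0462% of all transcripts did in LH vs. Ctrl, 0.0412% in LH vs. NLH, 0.0125% in NLH vs. Ctrl and 0.00374% in Ctrl vs. HC. At an unadjusted p under 0.05 there were 18 in LH vs. Ctrl (10.7% of all transcripts), 11 higher and 7 lower (4.16% and 6.54%), and with size factors 16 higher and 6 lower (all transcripts 4722 and 4846). There were 14 in LH vs. NLH (8.72%), 6 higher and 8 lower (2.98% and 5.74%), and with size factors 10 higher and 8 lower (all transcripts 3746 and 4054). In NLH vs. Ctrl there were 10 (5.12%), 7 higher and 3 lower (3.01% and 2.1%), and in Ctrl vs. HC 4 (3.45%), 3 higher and 1 lower (1.9% and 1.55%), or 3 higher and 2 lower with size factors (all transcripts 1576 and 1327). No overlap was seen in 15 member transcripts in LH vs. Ctrl (5.85% of all), 3 in LH vs. NLH (3.18%), 11 in NLH vs. Ctrl (5.02%) and 5 in Ctrl vs. HC (4.48%). By the annotation 118 of the 164 are protein coding, 24 retained intron, 15 processed transcript and 7 nonsense-mediated decay transcripts.

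Pcdh9-204, the form that skips the cassette exon, had the smallest p of all member transcripts in LH vs. Ctrl. It measured 9.25, 9.40, 9.55 and 9.05 FPKM in HC and 8.97, 7.55, 9.22 and 8.80 in Ctrl. It measured 11.8, 12.4, 9.49 and 11.1 FPKM in NLH and 14.3, 11.6, 15.5 and 10.2 in LH. All NLH and LH mice were above all Ctrl mice. The difference was 0.56 ± 0.13 in LH vs. Ctrl (adjusted p = 0.139), 0.37 ± 0.13 in NLH vs. Ctrl (adjusted p = 0.761) and 0.19 ± 0.13 in LH vs. NLH. The most abundant Pcdh9 transcript, the short Pcdh9-205 with 23.7 FPKM, ends before the joins shown above and differed by less than its SE of 0.09 in LH vs. Ctrl.

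Among the forms with the cassette exon, Pcdh9-201 and Pcdh9-208 made up 3.15% of their sum with Pcdh9-204 in LH3 and 4.67% in NLH1, and 15.9% to 29.4% in the other mice. The other LH mice had 18.4%, 28.6% and 26.2%, within the range of Ctrl (18.2% to 29.4%). The difference of Pcdh9-204 as a share of the Pcdh9 sum was 0.47 ± 0.28 in LH vs. Ctrl on the log2 scale of its ratio to the other transcripts (adjusted p = 0.542), and 0.27 without LH3.

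Pcdh20 had 2 transcripts with the same 2856 coding bases that differ in their untranslated parts. Pcdh20-202 measured 8.08, 9.12, 9.39 and 7.91 FPKM in Ctrl and 2.92, 7.20, near 0 and 2.199 in LH. All LH mice were below all Ctrl mice, and the difference was -2.54 ± 0.90 (adjusted p = 0.345) and -1.23 without LH3. The longer Pcdh20-201 measured 7.53, 7.04, 8.59 and 8.45 FPKM in Ctrl and 12.2, 11.8, 11.03 and 8.19 in LH, a difference of 0.43 ± 0.17 (adjusted p = 0.399). The 2 differences had opposite signs, and the Pcdh20 sum overlapped between the groups.

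Pcdh7-203 and Pcdh7-207 had differences of opposite sign in LH vs. NLH. Pcdh7-203 measured 5.46, 6.03, 5.48 and 5.10 FPKM in Ctrl, 7.13, 4.95, 3.19 and 5.53 in NLH and 9.11, 6.51, 7.30 and 7.26 in LH. The LH mice were above all Ctrl mice, by 0.44 ± 0.19 (adjusted p = 0.446), and above NLH by 0.57 ± 0.19 (adjusted p = 0.431, and 0.36 without NLH3) with 1 NLH mouse in the LH range. The truncated Pcdh7-207 measured 3.99, 5.77, 6.70 and 5.97 in NLH and 5.89, 2.66, 1.47 and near 0 in LH. As a share of Pcdh7, the Pcdh7-203 form was 53.0%, 22.5%, 18.1% and 28.0% in NLH and 50.2%, 47.8%, 52.6% and 84.9% in LH, a log2 difference of 1.88 ± 0.57 (adjusted p = 0.317), the smallest p of the member shares in LH vs. NLH.

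**Figure D5:**
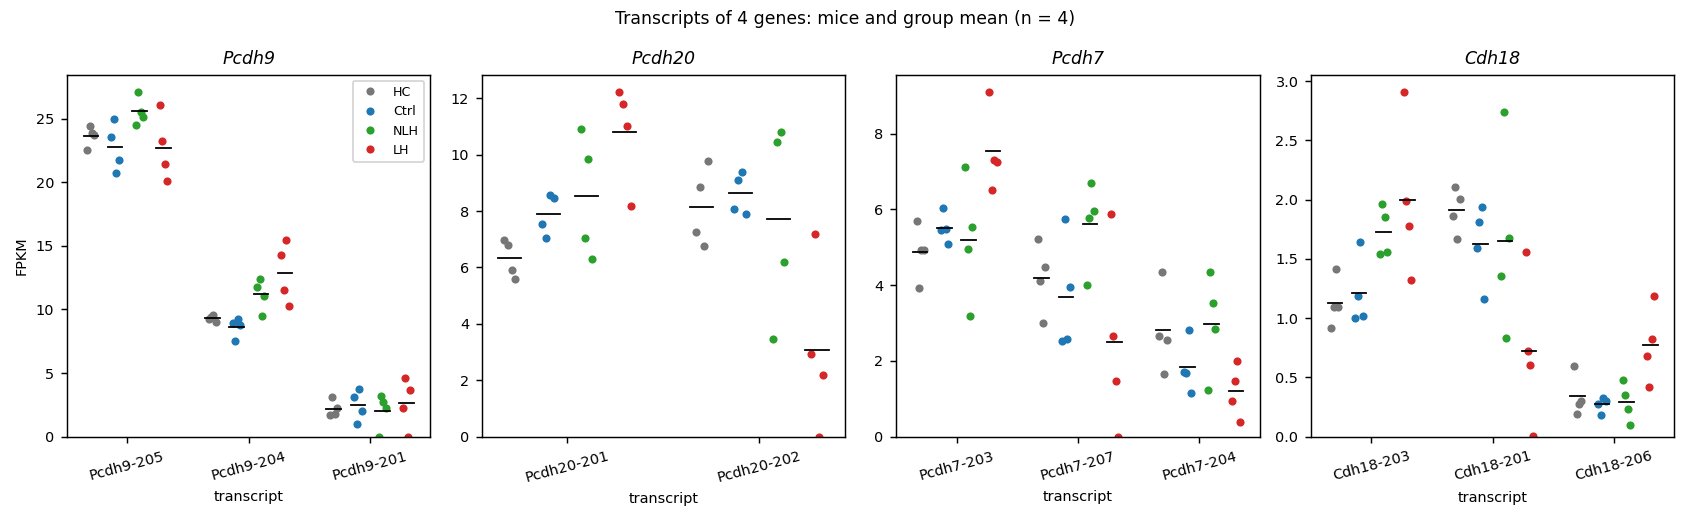
FPKM by mouse of the main transcripts of Pcdh9, Pcdh20, Pcdh7 and Cdh18, with the group mean (n = 4, linear axes from 0). Pcdh9-204 and Pcdh7-203 are higher and Pcdh20-202 lower in LH than in Ctrl without overlap, and the values of LH mice are spread widely for Pcdh20-202, Pcdh7-207 and Cdh18-201.

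In Cdh18 the form that retains the intron was lower in LH as a share of the gene. Cdh18-201 made up 55.5%, 47.1%, 46.2% and 33.4% in Ctrl and 24.99%, 18.1%, 15.7% and 0.0154% in LH, with no overlap and a log2 difference of -2.61 ± 0.73 (adjusted p = 0.211), which was -1.69 without LH4. The spliced Cdh18-203 measured 0.999, 1.19, 1.64 and 1.02 FPKM in Ctrl and 2.91, 1.98, 1.78 and 1.32 in LH, a difference of 0.65 ± 0.22 (adjusted p = 0.318). Cdh18-206, which is non-coding as well, was 2.27% to 12.1% of the gene in NLH and 10.5% to 24.1% in LH, a log2 difference of 1.32 ± 0.46 (adjusted p = 0.382).

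Shares could be fitted for 107 transcripts of 23 member genes. None passed an adjusted p of 0.05 with limma, which 0.0542%, 0.0701%, 0.0136% and 0.00452% of all shares did in LH vs. Ctrl, LH vs. NLH, NLH vs. Ctrl and Ctrl vs. HC. At an unadjusted p under 0.05 there were 12 in LH vs. Ctrl (11.2% of all shares), of which 5 were higher and 7 lower (3.76% and 7.47%), or 3 higher and 8 lower with size factors (all shares 1635 and 3813). There were 12 in LH vs. NLH (9.62%), 5 higher and 7 lower (3.49% and 6.14%), 5 in NLH vs. Ctrl (5.11%), 3 higher and 2 lower (2.22% and 2.89%), and 4 in Ctrl vs. HC (3.39%), 2 higher and 2 lower (1.62% and 1.77%), or 0 higher and 1 lower with size factors (all shares 710 and 715). The smallest p in LH vs. Ctrl and in NLH vs. Ctrl belonged to a retained intron transcript of Cdh11 (ENSMUST00000210425). It made up 5.78%, 10.1%, 0.0614% and 12.8% of the named Cdh11 rows in Ctrl, 46.7%, 52.0%, 29.2% and 62.4% in NLH, and 48.7%, 10.9%, 81.6% and almost none in LH. The log2 difference was 2.43 ± 0.60 in NLH vs. Ctrl (adjusted p = 0.384). All named Cdh11 rows were near 0 in LH4, so that its ratio was set by the pseudocount and carries no measured share. Without LH4 the log2 difference in LH vs. Ctrl was 2.2 (adjusted p = 0.257). Since the named Cdh11 rows amount to 1.23 FPKM of 15.9 at the locus, this share describes a small part of its signal.

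Pcdha4 had the next smallest p in NLH vs. Ctrl. Its transcript ENSMUST00000192512 made up 55.9%, 53.3%, 51.8% and 52.6% of the gene in NLH and 60.6% to 100% in Ctrl, a log2 difference of -1.99 ± 0.55 (adjusted p = 0.537), and the second transcript made up the rest. In HC the first transcript made up 53.4% to 88.4%, with a log2 difference of 1.26 ± 0.55 in Ctrl vs. HC (adjusted p = 1). The second transcript was at 0.330 FPKM in Ctrl4 and at most 0.0301 in the other Ctrl mice, below the pseudocount of 0.1. The size of both log2 differences of this share was therefore largely set by the pseudocount. For Cdh2 the shorter coding transcript Cdh2-202 was 4.16, 4.40, 5.14 and 4.74 FPKM in Ctrl and 8.89, 5.68, 6.18 and 7.09 in LH, without overlap, a difference of 0.57 ± 0.15 (adjusted p = 0.194), whereas the full-length Cdh2-201 differed by 0.18 ± 0.17.

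The 42 measured partners and relatives were counted in 4 lists, and none of their genes passed an adjusted p of 0.05 with limma. At an unadjusted p under 0.05 these lists held 4 genes with higher and 1 with lower values in LH vs. Ctrl, or 5 of 42, beside 11.8% of all genes. Ctnnd1 (p120 catenin), which holds classical cadherins at the membrane, measured 5.50, 4.79, 5.07 and 5.31 FPKM in Ctrl and 6.78, 7.55, 7.53 and 6.67 in LH, with no overlap, a difference of 0.46 ± 0.13 (adjusted p = 0.176). Its relative Arvcf differed by 0.60 ± 0.21, and Adam10, the protease that sheds N-cadherin and gamma protocadherins, by 0.39 ± 0.15. Nipbl, which loads the cohesin complex, differed by 0.26 ± 0.12. Dchs1, a large cadherin that binds Fat4, was lower by -0.35 ± 0.15 without overlap.

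By list, 7 of 10 catenins and junction partners, 2 of 11 larger relatives (Fat, Dachsous, Celsr and calsyntenin genes), 8 of 11 proteases and partners and 8 of 10 regulators of the clusters were higher in LH than in Ctrl, with medians of 0.09, -0.13, 0.04 and 0.16, beside 52.1% of all genes higher and a median of 0.01. In NLH vs. Ctrl all 10 catenins and junction partners were higher, with a median of 0.17, and Ctnna2 (0.23 ± 0.11), Ctnnd1 (0.30 ± 0.13), Ctcf (0.42 ± 0.16) and Wapl (0.29 ± 0.12) passed the unadjusted test, or 4 of 42. Of all genes 63.9% were higher, with a median of 0.07, and 5.96% passed. The values of the 4 lists are given for FPKM as deposited only. With size factors all genes passing in NLH vs. Ctrl went from 738 higher and 143 lower to 592 higher and 571 lower, so the direction of these lists may depend on the scaling. Ctcf and cohesin, which Wapl releases from DNA, act in the choice of cluster promoters. In LH vs. NLH and in Ctrl vs. HC 0 of the 42 genes passed the unadjusted test, beside 7.03% and 2.64% of all genes. The list medians were -0.14 to -0.02 and 0.02 to 0.09, and the medians of all genes -0.05 and 0.03.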

How the data were processed

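The authors deposited 1 table of FPKM per transcript and mouse. The submitters' processing notes name STAR 2.42a, StringTie 1.2.3 and Cufflinks on mm10, the methods name HISAT2, and the limits of the filter are not given in the sources used here. FPKM of protein coding rows were summed per gene name. The log2(FPKM + 0.1) values of all 16 mice were fitted with limma 3.58.1 (R 4.3.3, trend and robust) on 4 group means, and p-values were adjusted by Benjamini-Hochberg over 14785 genes or 80137 transcripts. The study's own unadjusted Student test was an alternative. Shares were log2 ratios of a transcript to the rest of its gene, for genes with a mean of at least 1 FPKM (44242 transcripts of 8162 genes). Depth was estimated from 394 to 602 loci per mouse, of 1962 candidate loci. Of the values used, 61.4% to 76.4% lay within 0.1 of a whole fragment, against 20% by chance, so no count test was run. Annotation was GENCODE vM21. The rule named the 3 highest genes of each family and, per comparison, the 3 genes (mean of at least 0.5 in either group) and 2 shares with the smallest p; other genes named were chosen after their values were seen. Members and lists were chosen with earlier results of these data known. The fit was also run on simulated data with the same spread in all groups, which does not cover the wider spread of LH. Labels give separate mice and no pairing: of 24 same-numbered pairs 3 had a correlation of deviations over 0.1 (median -0.03).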

Additional observations from a re-analysis of the deposited data

Results flagged for a closer look

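In 11 of 140 groups of 4 mice, over 35 genes and transcripts, 1 mouse lay far from the other 3 (gap to the nearest other mouse over the range of the group above Dixon's 95% critical value); chance alone gives this in about 1 in 20 groups. LH4 stood apart for Cdh4 (2.25 FPKM, the others up to 0.983), Cdh8 (11.6, the others from 15.9) and Pcdha7 (1.17, the others from 1.46). In Ctrl4 Cdh1 was at 0.217 FPKM (the others up to 0.0852), Pcdhga12 at 1.84 (the others up to 1.40), and the Pcdha4 transcript ENSMUST00000192295 at 0.330 (the others up to 0.0301). In Ctrl3 Pcdhgc5 was at 15.2 FPKM (the others up to 12.4), and in NLH2 Pcdh9 was at 43.3 (the others up to 38.6). Pcdhb2 was above 0.001 FPKM in 1 mouse of each of 3 groups, at 0.324 in HC2, 0.177 in Ctrl3 and 0.157 in LH1.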

How the results depend on the processing

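Counts below are members at an unadjusted p under 0.05, with the comparisons in the order of the report, where the reported counts were 11, 7, 4 and 1 for genes, 18, 14, 10 and 4 for transcripts and 12, 12, 5 and 4 for shares, and values within 1.5 times those are left out. With a mean of at least 1 FPKM, genes gave 7 in LH vs. Ctrl and 4 against NLH, transcripts 10, 8, 5 and 2, and shares 0 in NLH vs. Ctrl and 0 in Ctrl vs. HC. With the study's unadjusted test, genes gave 6, 1, 9 and 7, transcripts 5 in LH vs. NLH and 8 in Ctrl vs. HC, and shares 4 and 1 in these. With only the 8 mice compared, genes gave 5, 2, 10 and 9, transcripts 8 in LH vs. NLH and 10 in Ctrl vs. HC, and shares 7 in LH vs. Ctrl and 3 against NLH. In Ctrl vs. HC a pseudocount of 1 gave 3 genes, 2 transcripts and 0 shares, and median-ratio size factors 2 genes and 1 share; in LH vs. Ctrl a pseudocount of 0.01 gave 7 shares. Without LH3 and LH4, 3 genes were left in LH vs. NLH, and 4 genes had an adjusted p under 0.05 in LH vs. Ctrl. Coding transcripts only and all rows of the locus were added after seeing the data: the first gave 4 genes in LH vs. NLH, 7 in NLH vs. Ctrl and 2 in Ctrl vs. HC, and no value for Cdh23, and the second gave 2 genes in Ctrl vs. HC. Leaving out 1 mouse at a time gave 8 to 16, 1 to 9, 2 to 6 and 0 to 2 genes, 13 to 24, 9 to 26, 5 to 12 and 1 to 6 transcripts, and 6 to 22, 7 to 22, 4 to 8 and 0 to 3 shares; at an adjusted p under 0.05 it gave 0 to 2 genes and 0 to 1 share for LH vs. Ctrl, and 0 in the other comparisons. Omissions that moved a count by over 1.5 times were, for genes, NLH2 (1), LH3 (2), NLH3 (3), NLH4 and LH4 (4 each) in LH vs. NLH, Ctrl1, Ctrl2, Ctrl4 and NLH2 (2 each) in NLH vs. Ctrl, and HC1, HC2, Ctrl2 and Ctrl3 (0 each) and HC4, Ctrl1 and Ctrl4 (2 each) in Ctrl vs. HC. For transcripts they were NLH1 (26), LH1 and LH2 (25 each) and NLH2 (9) in LH vs. NLH, Ctrl1 and Ctrl2 (5 each) and NLH3 (6) in NLH vs. Ctrl, and HC3 and Ctrl3 (1 each) in Ctrl vs. HC. For shares they were LH1 (22), Ctrl1 and Ctrl2 (6 each) and Ctrl3 (7) in LH vs. Ctrl, LH1 (22) and NLH3 (7) in LH vs. NLH, NLH1 (8) in NLH vs. Ctrl, and HC1 and Ctrl1 (1 each) and HC2, HC3, Ctrl2 and Ctrl3 (0 each) in Ctrl vs. HC. The mouse numbers did not pair the mice; with the replicate block, 12, 6, 4 and 1 genes passed the unadjusted test, transcripts in Ctrl vs. HC numbered 2, and shares numbered 7 in LH vs. Ctrl and 0 in Ctrl vs. HC. All 20 named gene and share values kept their direction in all 318 limma refits that gave a value, among which the empty coding sum of Cdh23 is not counted. Past the adjusted threshold came Cdh2 in LH vs. Ctrl without LH3 and LH4 (0.43, adjusted p = 0.0405), and the Cdh11 share without LH2, where LH4 has no measured share. The cause of these differences was not tested. Depth limits the genes under 1 FPKM most, and LH4, the mouse of lowest depth, held the most zeros.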
